A study of Mus musculus with 15 samples.

Results

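The genes described here are 10 feedback inhibitors of mitogen-activated protein kinase (MAPK) signalling, namely the 6 dual-specificity phosphatase genes Dusp1, Dusp2, Dusp4, Dusp5, Dusp6 and Dusp10 and the 4 Sprouty and Spred genes Spry1, Spry2, Spred1 and Spred2. They were taken by symbol from the 48795 genes of each sample, and all 10 were among the 13600 genes that passed the filter on low counts. Their RNA was measured by RNAseq in invariant natural killer T (iNKT) cells, T cells that recognise lipids on CD1d, which were sorted as TCRβ+ cells binding a CD1d tetramer loaded with PBS57 and lacking B220, CD11b, CD11c and CD8. All 15 samples came from untreated WT C57BL/6 mice aged 6 weeks, with 4 samples each from thymus, spleen and mesenteric lymph node (mLN) and 3 from inguinal lymph node (iLN). Tissue is the variable compared, while batch and the handling of the tissues, both described below, varied as well. The labels number the samples of a tissue as replicates, and the same numbers recur across tissues. They do not say whether a replicate was 1 mouse or a pool, so that p-values measure the spread between these samples. Replicates 3 and 4 form batch 1 and replicates 1 and 2 form batch 2, and iLN replicate 1 was not analysed here.

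MAPK cascades carry signals from the T cell receptor through Ras to the kinase ERK, and from stress and cytokines to the kinases JNK and p38. Dual-specificity phosphatases remove the activating phosphates from these kinases, and many of their genes are themselves switched on by the pathway they shut off. Sprouty and Spred proteins act further upstream, on the activation of Ras and Raf, and are likewise part of negative feedback. In T cells such genes are known both as brakes and as a transcriptional trace of recent signalling.

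Libraries held between 1152702 and 8670570 counts, with thymus replicate 2 the smallest. Genes that mark iNKT cells were abundant in every tissue, with summed levels between 4996 and 8850 TPM (transcripts per length of transcript, scaled to the same sum in every library). The 8 B cell markers summed to between 1.54 and 9.49 TPM in thymus, mLN and iLN and up to 104 TPM in spleen, and the 9 myeloid markers to at most 18.3 TPM outside spleen and up to 89.2 TPM in spleen, both highest in spleen replicate 1. The 6 dendritic cell markers reached at most 22.9 TPM, with Clec9a at 0 in every sample. The 7 immature thymocyte markers include Cd4, which some iNKT cells also express. They summed to 30.7 to 117 TPM in thymus, 37.5 to 145 TPM in spleen and 71.9 to 208 TPM in the LNs. The 8 stromal markers lay between 11.8 and 67.0 TPM, with Col3a1, Pdgfra and Pdgfrb at 0 throughout. The 6 red cell markers lay between 68.0 and 340 TPM in spleen and between 1.24 and 16.8 TPM in the LNs.

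The 250 bases upstream of the RefSeq start site were searched on both strands for motifs of factors that act below MAPK cascades, since these genes are known targets of such factors. Of the 10 genes, 9 had an entry among 32851 RefSeq promoters (GRCm38.p6). The motifs were the cyclic AMP response element (CRE, TGACGTCA, in 1.55% of all these promoters), the AP-1 site (TGANTCA, 6.75%), the EGR site (GCGNGGGCG, 4.70%), the ETS site (CCGGAAG, 6.91%) and the CArG box bound by serum response factor (1.47%). Dusp1 held 1 CRE, Dusp2 held 1 EGR site and Dusp5 held a pair of adjoining CArG boxes. Dusp6, Dusp10, Spry1, Spry2, Spred1 and Spred2 held none of these letters in this window. For Dusp10 the window, chr1:184034131-184034380, lies inside the gene as positioned below. The bases upstream of its outermost start were therefore not searched. A match is a description of the letters and not evidence of a bound factor. The 3 stretches that held a match are printed below 5′ to 3′ on the strand of the gene, ending before the first annotated start site, with the motif in capitals. They are Dusp1 at chr17:26508520-26508722 (minus strand), Dusp2 at chr2:127335909-127336158 (plus strand) and Dusp5 at chr19:53528895-53529108 (plus strand).
Dusp1: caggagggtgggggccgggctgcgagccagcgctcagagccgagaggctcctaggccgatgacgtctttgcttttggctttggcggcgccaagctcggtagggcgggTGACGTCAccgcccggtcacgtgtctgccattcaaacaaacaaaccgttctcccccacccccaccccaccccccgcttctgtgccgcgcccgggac
Dusp2: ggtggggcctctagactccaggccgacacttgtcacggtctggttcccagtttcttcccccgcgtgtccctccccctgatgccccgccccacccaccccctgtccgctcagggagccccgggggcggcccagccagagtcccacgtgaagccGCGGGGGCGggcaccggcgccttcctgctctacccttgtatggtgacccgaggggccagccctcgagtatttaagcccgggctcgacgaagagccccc
Dusp5: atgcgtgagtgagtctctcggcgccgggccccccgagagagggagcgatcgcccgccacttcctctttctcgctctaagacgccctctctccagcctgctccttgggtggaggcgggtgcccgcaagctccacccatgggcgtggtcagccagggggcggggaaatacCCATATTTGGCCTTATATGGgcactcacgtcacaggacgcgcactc

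Levels of different genes were compared per length, in TPM. By their means, the order of the 10 genes differed between tissues at its top. Dusp2, an inducible phosphatase of the nucleus, was first in thymus, at 58.6 ± 6.23 TPM (SD, n = 4), and, by its mean, in spleen, at 33.04 ± 12.3 TPM (SD, n = 4). Dusp1, an early-response phosphatase for p38, JNK and ERK, was 4th in both of these tissues and had the highest mean in mLN and iLN, at 80.3 ± 57.7 TPM (SD, n = 4) and 42.9 ± 21.8 TPM (SD, n = 3). In iLN, Dusp2 followed at 42.02 ± 16.0 TPM (SD, n = 3), so that the first and second places there did not differ beyond the spread. In mLN, Dusp1 and Dusp2 also overlapped, at 31.7 to 162 TPM and 30.2 to 75.5 TPM. Their order followed the batch, with Dusp1 above Dusp2 in all 3 LN libraries of batch 2 and below it in all 4 of batch 1.

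Behind the leading genes, the second place went to Spry2 in thymus, at 19.5 ± 3.45 TPM (SD, n = 4), and to Dusp6 in spleen, at 28.1 ± 5.69 TPM (SD, n = 4). Neither place was clear of its neighbour, since Spred2 exceeded Spry2 in 2 of the 4 thymus libraries and Dusp6 exceeded Dusp2 in 2 of the 4 spleen libraries. In spleen, Spry2 held the 8th place at 3.39 ± 0.36 TPM (SD, n = 4). In thymus, Dusp6 held the 6th place at 7.14 ± 3.72 TPM (SD, n = 4), and its neighbours Dusp10 and Dusp5 lay within its spread. Dusp4 and Spry1 held the last 2 places in every tissue, with no value above 5.65 TPM and 1.33 TPM. Summed over the 10 genes, the level was 164 to 295 TPM in mLN, against 129 to 142 TPM in thymus, 99.7 to 137 TPM in spleen and 130 to 147 TPM in iLN. The higher sum in mLN rests largely on Dusp1, with means of 80.3 TPM in mLN, 12.6 TPM in thymus, 12.8 TPM in spleen and 42.9 TPM in iLN. In mLN replicate 1, Spry2 alone held 44.8 TPM. The plot of levels per length shows Dusp6 and Spry2 in opposite places in thymus and spleen, and Dusp1 above both tissues in the LNs.

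**Figure D1:**
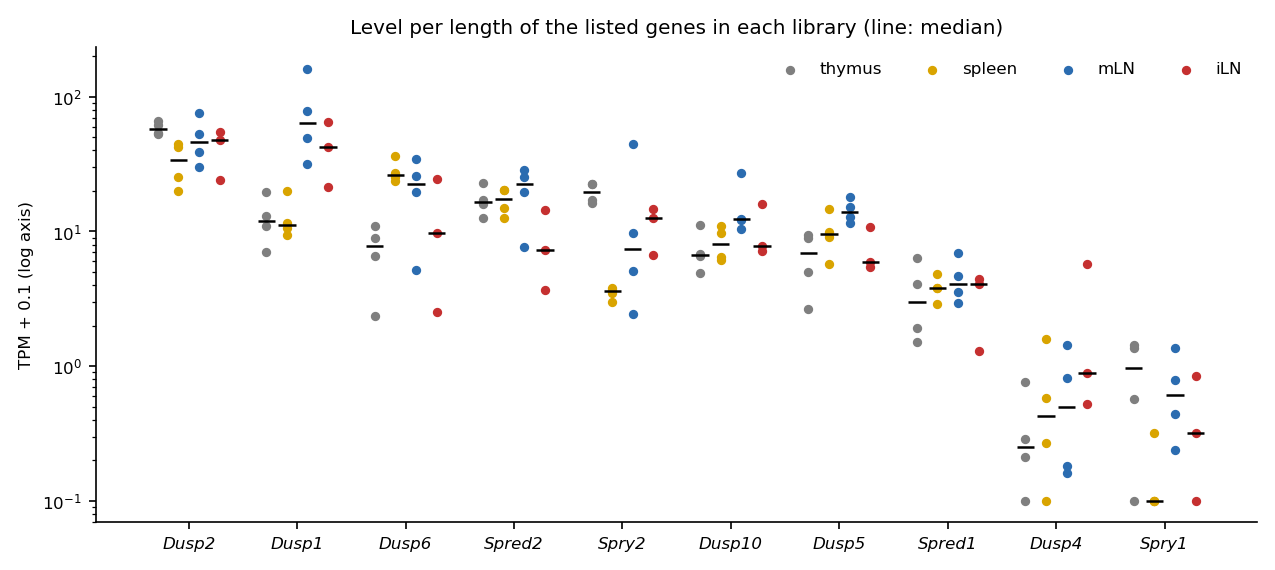
Level per length of each gene in each of the 15 libraries, as TPM + 0.1 on a log axis, with genes ordered by their mean and a line at the median of each tissue (colours). Dusp1 is higher in every mLN and iLN library than in any of spleen or thymus, Dusp6 is high in spleen where Spry2 is at 2.88 to 3.68 TPM, and Dusp4 and Spry1 lie at the bottom in every tissue.

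Within a gene, samples were compared as normalized CPM (counts scaled to a common library size after TMM correction). A single edgeR quasi-likelihood model of all genes, with terms for tissue and batch, gave the tests. Calls required a fold change over 1.5 and an adjusted p (Benjamini-Hochberg) under 0.01. When the LNs were set against spleen and thymus averaged, 1 of the 10 genes was called, Dusp1, against a background of 1.72% of all genes tested. DESeq2 called the same single gene there, against 3.51% of all genes. The median log2 fold change of the 10 genes was 0.49, with 6 above 0, and that of all genes was 0.02. The test over the 4 tissues together also called 1 of the 10, again Dusp1, against 3.38% of all genes, while DESeq2 called 2 of the 10, Dusp1 and Dusp6, against 7.37%. In this joint test 8 of the 10 had an unadjusted edgeR p under 0.05, against 19.4% of all genes. Without the batch term 3 of the 10 did, against 15.4%. In the comparison of the LNs with spleen and thymus 2 of the 10 did, against 17.6%.

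Dusp1 (ENSMUSG00000024190, GRCm38 chromosome 17, 26505590 to 26508519, minus strand) rose in the LNs. It stood at 85.7, 177, 57.8 and 34.7 CPM in mLN replicates 1 to 4 and at 63.0, 73.4 and 26.2 CPM in iLN replicates 2 to 4. In thymus replicates 1 to 4 it stood at 25.7, 5.15, 19.6 and 19.2 CPM, and in spleen replicates 1 to 4 at 15.8, 8.27, 19.4 and 14.4 CPM. Every LN sample thus lay above every spleen and thymus sample, although iLN replicate 4 exceeded thymus replicate 1 by less than 1 CPM. Of all genes tested, 0.294% were higher in the LNs without such overlap.

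Dusp1 exceeded the average of spleen and thymus in the LNs by 2.06 ± 0.34 on the log2 scale (SE, edgeR adjusted p = 0.00124). The adjusted p of the test over 4 tissues was 0.00341. Set against spleen, mLN differed by 2.53 ± 0.49 on that scale (SE, edgeR adjusted p = 0.00956), whereas iLN differed by 1.92 ± 0.50 (SE, edgeR adjusted p = 0.0329). Set against thymus, the corresponding values were 2.204 ± 0.48 for mLN (SE, edgeR adjusted p = 0.0129) but 1.60 ± 0.49 for iLN (SE, edgeR adjusted p = 0.0892). Only mLN versus spleen passed among these 4, and that call was kept without thymus replicate 2, mLN replicate 4 or iLN replicate 4 and lost without any other of the 15 libraries, with adjusted p up to 0.0508. The difference between iLN and mLN was -0.61 ± 0.50 (SE, edgeR adjusted p = 0.648), within the spread, and that between thymus and spleen 0.33 ± 0.47 (SE, edgeR adjusted p = 0.917).

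The LN difference of Dusp1 was called in each of the 15 fits that left out 1 library, with log2 fold changes between 1.80 and 2.22 and adjusted p up to 0.00629. The call over the 4 tissues was lost without spleen replicate 1 (adjusted p = 0.0118). Within batch 1 alone the LN log2 fold change of Dusp1 was 1.39 (edgeR adjusted p = 0.061) and within batch 2 alone it was 2.66 (edgeR adjusted p = 0.0475), so that the direction held in both and neither passed the threshold. The difference between the batches was 1.40 ± 0.63 (SE, edgeR adjusted p = 0.706). At this threshold the interaction of LN with batch called 0 of all genes (0%), and 2 of the 10 genes, Dusp1 and Spry2, had an unadjusted p under 0.05, as did 6.88% of all genes.

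LNs had been digested with enzymes before sorting whereas spleen and thymus had been pressed through a strainer, so that handling and LN origin cannot be told apart. Of 22 tested early genes that dissociation of tissue is known to induce, 4 were called higher and 0 lower in the LNs. The list was drawn up without Dusp1, so that its absence there does not show whether dissociation induces it. Summed over the list, these genes lay between 1616 and 3122 TPM in spleen and thymus. In the LNs the sum lay between 1760 and 3561 TPM. Hspa8 alone had tissue means of 875 to 1257 TPM, against at most 8.07 TPM for Fos. The sum therefore cannot show changes of genes as low as Fos. Markers of iNKT subsets differed as well. Of 8 NKT1 markers, 0 were called higher and 5 lower in the LNs. Their summed level was 591 to 1225 TPM in the LNs and 1421 to 2372 TPM in spleen and thymus. Of the 6 tested NKT17 markers, 5 were called higher and 0 lower in the LNs, with sums of 15.5 to 56.1 TPM in mLN, 142 to 360 TPM in iLN and 2.6 to 21.1 TPM in spleen and thymus. Of 6 NKT2 markers, 2 were called higher and 0 lower, and of 9 tested general iNKT markers 1 was called higher and 1 lower. The higher NKT2 markers were Ccr4 and Zbtb16. Zbtb16 was also the higher general marker, so that these counts are not independent. The part of digestion, subset composition or red cell RNA in the Dusp1 result was not tested. In bulk samples, fewer cells that express a gene and less RNA per cell cannot be told apart.

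**Figure D2:**
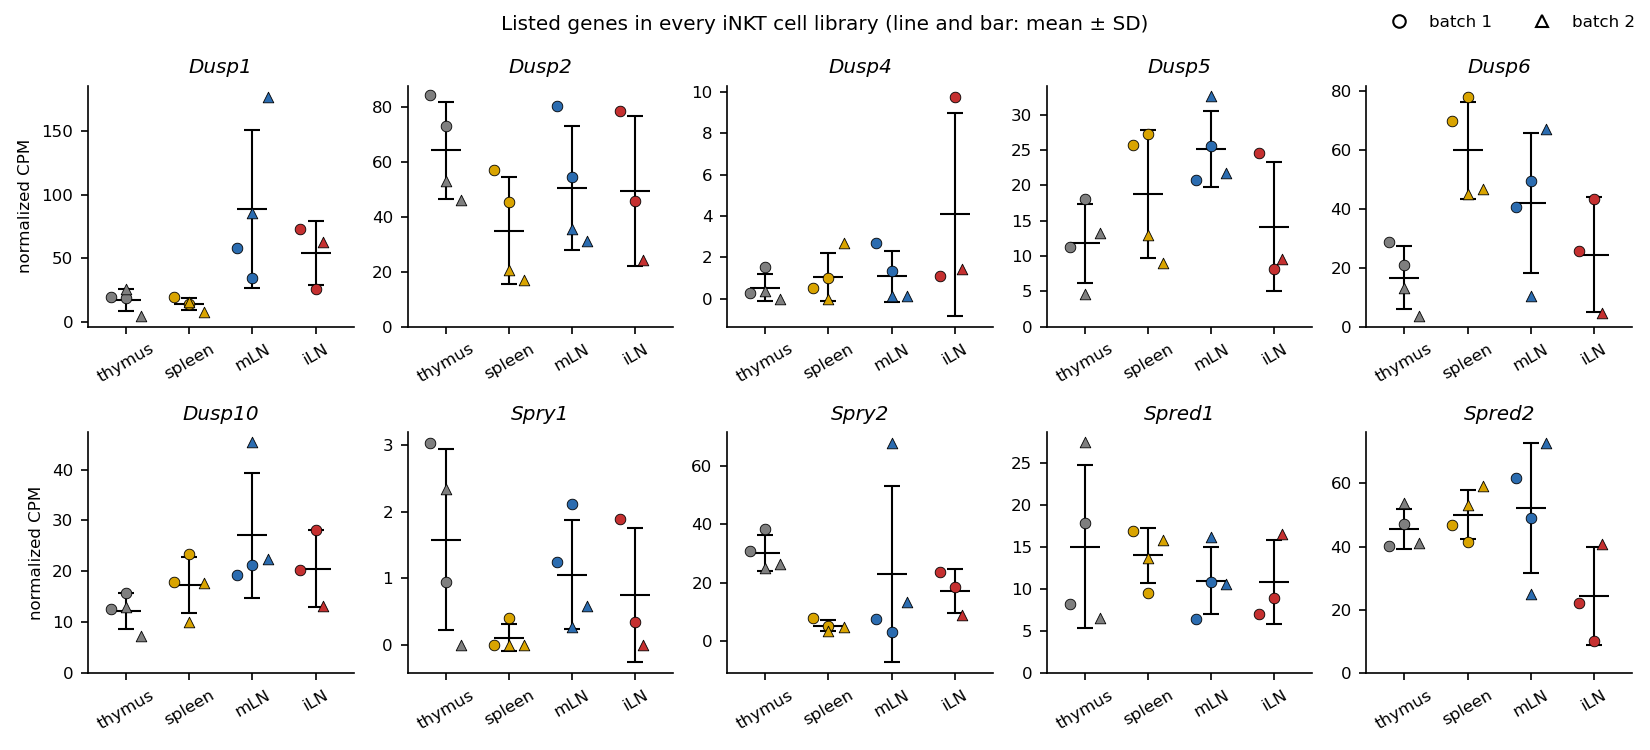
Normalized CPM of each of the 10 genes in the 15 libraries by tissue, with batch 1 as circles and batch 2 as triangles, a horizontal line at the mean and a bar of ± 1 SD. The 7 LN samples of Dusp1 lie between 26.2 and 177 CPM, above all 8 spleen and thymus samples, and Dusp2 is higher in batch 1 than in batch 2 within every tissue.

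Dusp2, Dusp4 and Dusp5 encode inducible phosphatases of the nucleus, and Dusp5 is specific for ERK. Against spleen, edgeR called 0 of the 10 genes in thymus, where the background was 1.32% of all genes. An unadjusted p under 0.05 was reached there by 4 of the 10, Dusp2, Dusp6, Spry1 and Spry2, and by 10.6% of all genes. DESeq2 called 3 of the 10, Dusp2, Dusp6 and Spry2, against 2.85% of all genes, so that these 3 calls were not shared by both tests.

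Dusp2 (ENSMUSG00000027368, chromosome 2, 127336159 to 127338376, plus strand) stood at 53.1, 46.3, 84.3 and 73.2 CPM in thymus replicates 1 to 4 and at 20.5, 17.0, 57.1 and 45.6 CPM in spleen replicates 1 to 4. The tissues overlapped over all samples but not within a batch. Each held 2 samples per batch, and the share of all genes for this was not counted. Thymus exceeded spleen by 1.01 ± 0.24 on the log2 scale (SE, edgeR adjusted p = 0.0264, DESeq2 adjusted p = 0.00243). It was 0.61 in batch 1 alone (edgeR adjusted p = 0.847) and 1.40 in batch 2 alone (edgeR adjusted p = 0.377), the same direction without passing the threshold in either. The LN samples overlapped both tissues, at 35.7, 31.1, 80.5 and 54.7 CPM in mLN replicates 1 to 4 and at 24.2, 78.6 and 45.7 CPM in iLN replicates 2 to 4. Their log2 differences from spleen were 0.60 ± 0.24 for mLN (SE, edgeR adjusted p = 0.281), with 0.36 ± 0.26 for iLN (SE, edgeR adjusted p = 0.549).

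Dusp2 also differed between the batches. Its log2 fold change between batch 2 and batch 1 was -1.10 ± 0.18 (SE, edgeR adjusted p = 0.000873). It was the 1 gene of the 10 called between batches, against 3.82% of all genes. Each tissue showed it without overlap, as thymus at 73.2 to 84.3 CPM in batch 1 against 46.3 to 53.1 in batch 2, spleen at 45.6 to 57.1 against 17.0 to 20.5, and mLN at 54.7 to 80.5 against 31.1 to 35.7. Both iLN samples of batch 1 likewise exceeded the single iLN sample of batch 2. With so few samples per batch such separation is easily reached, and the share of all genes that had it was not counted. The labels give the batches as first and second and do not say what differed between them.

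Dusp5 (ENSMUSG00000034765, chromosome 19, 53529109 to 53542431, plus strand) stood at 32.7, 21.8, 20.8 and 25.6 CPM in mLN replicates 1 to 4 and at 4.57, 13.2, 11.3 and 18.0 CPM in thymus replicates 1 to 4. These samples did not overlap. Together with Dusp1 and Dusp10, 3 of the 10 genes were higher in mLN than in thymus without overlap, against 3.82% of all genes. The log2 fold change of Dusp5 between mLN and thymus was 1.25 ± 0.44 (SE), which did not pass (edgeR adjusted p = 0.18). In spleen replicates 1 to 4 it stood at 13.0, 9.02, 25.7 and 27.3 CPM and in iLN replicates 2 to 4 at 9.51, 24.7 and 8.21 CPM, overlapping both. Its log2 differences from spleen were -0.66 ± 0.44 in thymus, 0.59 ± 0.43 in mLN and -0.46 ± 0.46 in iLN (SE), none past the threshold (edgeR adjusted p = 0.72, 0.646 and 0.697).

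Dusp4 (ENSMUSG00000031530, chromosome 8, 34807297 to 34819894, plus strand) was near the limit of detection. It held 128 counts in all 15 libraries, of which 57 were in iLN replicate 4 alone. In 6 of the 15 libraries it held fewer than 3 counts, and it ranged from 0 to 2.70 CPM outside iLN replicate 4, which stood at 9.75 CPM. No difference between tissues was detectable at this depth.

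Dusp6 encodes the cytoplasmic phosphatase specific for ERK. Dusp6 (ENSMUSG00000019960, chromosome 10, 99263231 to 99267488, plus strand) stood at 45.1, 46.7, 69.8 and 77.9 CPM in spleen replicates 1 to 4 and at 13.2, 3.68, 28.6 and 20.9 CPM in thymus replicates 1 to 4. The tissues did not overlap, with thymus lower, as in 4.24% of all genes. Thymus differed from spleen by -1.92 ± 0.51 on the log2 scale (SE, edgeR adjusted p = 0.0523), which was not called. DESeq2 called it (adjusted p = 0.00247), and so did edgeR on the 2 tissues alone (adjusted p = 0.00114). The direction held within batch 1, at -1.59 (edgeR adjusted p = 0.0495), and within batch 2, at -2.32 (edgeR adjusted p = 0.453).

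In the LNs Dusp6 was scattered. It stood at 10.5, 67.0, 40.6 and 49.5 CPM in mLN replicates 1 to 4 and at 4.49, 25.5 and 43.3 CPM in iLN replicates 2 to 4. The iLN samples all lay below the spleen samples, without overlap in that direction for 2 of the 10 genes (Dusp6 and Spred2) against 6.89% of all genes. From spleen, Dusp6 differed by -1.67 ± 0.57 on the log2 scale for iLN (SE, edgeR adjusted p = 0.122), with -0.44 ± 0.48 for mLN (SE, edgeR adjusted p = 0.791). Between mLN and thymus it was 1.48 ± 0.51 (SE, edgeR adjusted p = 0.157).

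Dusp10 encodes a phosphatase that prefers JNK and p38. Dusp10 (ENSMUSG00000039384, chromosome 1, 184013302 to 184075636, plus strand) stood at 45.4, 22.3, 19.3 and 21.2 CPM in mLN replicates 1 to 4 and at 13.1, 7.35, 12.7 and 15.7 CPM in thymus replicates 1 to 4. The mLN samples all exceeded the thymus samples, with mLN replicate 1 far above the rest. Between mLN and thymus the log2 difference was 1.16 ± 0.39 (SE, edgeR adjusted p = 0.143) and was not called. Spleen samples lay between 10.1 and 23.4 CPM and iLN samples between 13.1 and 28.2 CPM. Its log2 differences from spleen were -0.46 ± 0.38 in thymus, 0.70 ± 0.38 in mLN and 0.21 ± 0.41 in iLN (SE), none past the threshold (edgeR adjusted p = 0.799, 0.493 and 0.864).

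**Figure D3:**
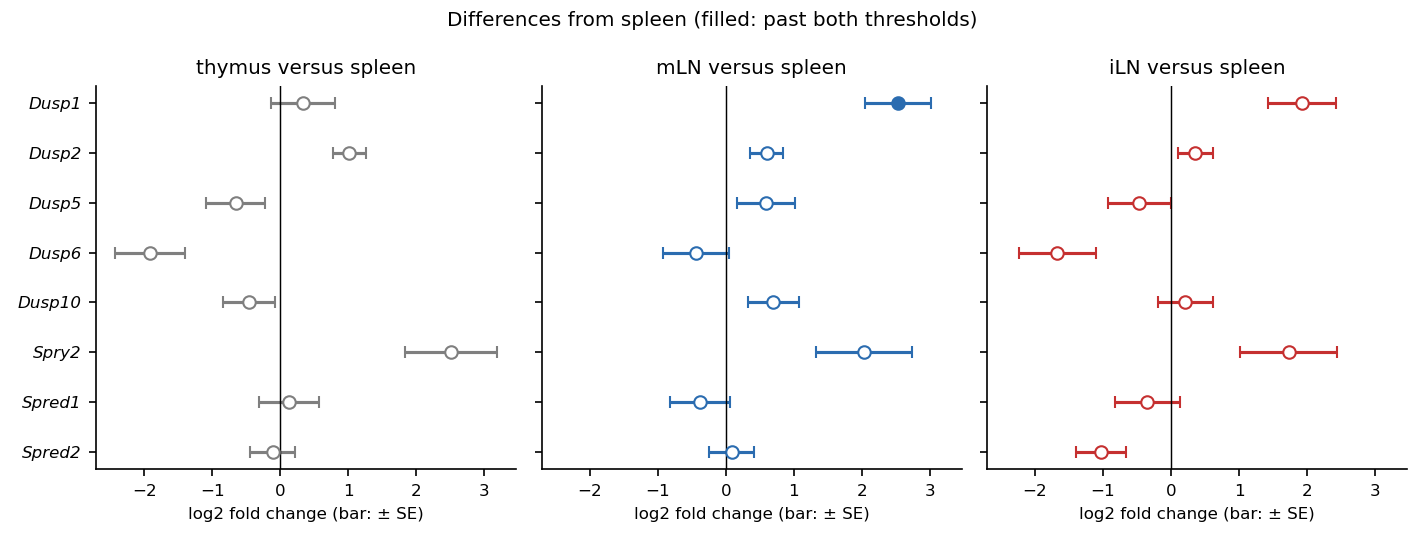
Log2 fold change from spleen with its SE for the 8 genes that had counts enough for a fold change, in thymus, mLN and iLN. The filled point, Dusp1 in mLN, is the 1 value past both thresholds, and Dusp6 and Spry2 in thymus lie at -1.92 and 2.51 without passing.

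Spry2, an inhibitor of signalling from receptors to Ras and ERK, was high in thymus and low in spleen, where Dusp6 was low and high. Spry2 (ENSMUSG00000022114, chromosome 14, 105891947 to 105896819, minus strand) stood at 25.1, 26.5, 30.9 and 38.5 CPM in thymus replicates 1 to 4 and at 3.45, 4.81, 7.97 and 5.29 CPM in spleen replicates 1 to 4. Every thymus sample was at least 3 times as high as every spleen sample, a separation without overlap that 4.32% of all genes had in this direction. The log2 fold change was 2.51 ± 0.68 (SE) and missed the threshold (edgeR adjusted p = 0.0557), while DESeq2 called it (adjusted p = 0.00238), as did edgeR on the 2 tissues alone (adjusted p = 0.000144). Within the batches it was 2.38 (batch 1, edgeR adjusted p = 0.0495) and 2.63 (batch 2, edgeR adjusted p = 0.274).

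Spry2 was also the most scattered of the abundant genes within mLN, at 67.6, 13.5, 7.49 and 3.27 CPM in replicates 1 to 4. In iLN replicates 2 to 4 it stood at 8.97, 23.8 and 18.6 CPM. All iLN samples lay above all spleen samples, as also for Dusp1, so that 2 of the 10 genes were higher without overlap in iLN than in spleen, against 6% of all genes. They also lay below all thymus samples, as 7.15% of all genes did, with Dusp1 above them as 6.2% did. For Spry2 the log2 differences were 1.73 ± 0.71 between iLN and spleen (SE, edgeR adjusted p = 0.218), 2.04 ± 0.71 between mLN and spleen (SE, edgeR adjusted p = 0.209) and -0.78 ± 0.70 between iLN and thymus (SE, edgeR adjusted p = 0.627).

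The fit behind these values shares one estimate of spread over all 4 tissues. Without mLN replicate 1, in which Spry2 was highest, the thymus difference of Spry2 passed with the same size (2.51, edgeR adjusted p = 0.00281). Without mLN replicate 2, in which Dusp6 was highest among the LN samples, that of Dusp6 passed (-1.99, edgeR adjusted p = 0.00651). Each difference passed in no other fit that left out a single library. The cause was not tested. In the same mLN replicate 1 Dusp6 was at its lowest among mLN samples and Dusp10 at its highest of all 15.

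Spry1, a relative of Spry2, was barely detected. Spry1 (ENSMUSG00000037211, chromosome 3, 37639947 to 37644598, plus strand) held 69 counts in all, with 5 libraries at 0 and 8 of the 15 below 3 counts. Its exons overlap those of Gm42922 (10 counts in all), and the split of reads between them is RSEM's estimate. The 4 spleen libraries held 0, 0, 0 and 2 counts and the 4 thymus libraries 19, 0, 11 and 5. The ratio of the normalized sums was 24.5 in thymus against spleen, with a 95% interval of 6.30 to 210 that covers counting error only. In mLN (23 counts) the ratio was 12.03 (2.97 to 105) and in iLN (9 counts) 7.66 (1.59 to 72.9). None of these differences passed the edgeR test over samples (adjusted p of 0.146, 0.318 and 0.486).

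Spred1 and Spred2, which inhibit the step from Ras to Raf, showed no called difference between tissues. Spred2 (ENSMUSG00000045671, chromosome 11, 19924375 to 20024026, plus strand) stood at 53.8, 41.2, 40.2 and 47.2 CPM in thymus replicates 1 to 4, at 53.2, 59.1, 46.8 and 41.3 CPM in spleen and at 25.2, 72.8, 61.8 and 49.1 CPM in mLN. In iLN replicates 2 to 4 it was lower, at 40.9, 22.2 and 10.3 CPM, all below the spleen samples by a narrow margin at the top. Its log2 fold change was -1.03 ± 0.37 between iLN and spleen (SE, edgeR adjusted p = 0.149) and -1.12 ± 0.37 between iLN and mLN (SE, edgeR adjusted p = 0.158), neither past the threshold. From spleen it was -0.11 ± 0.33 in thymus and 0.09 ± 0.33 in mLN (SE, edgeR adjusted p = 0.965 and 0.953).

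Spred1 (ENSMUSG00000027351, chromosome 2, 117121374 to 117182279, plus strand) lay between 6.62 and 27.5 CPM in thymus, 9.56 and 16.9 CPM in spleen, 6.45 and 16.2 CPM in mLN and 7.04 and 16.5 CPM in iLN. The ranges overlapped in every pair of tissues. Its log2 differences from spleen were 0.12 ± 0.44 in thymus, -0.38 ± 0.44 in mLN and -0.35 ± 0.48 in iLN (SE), all smaller than 1 SE (edgeR adjusted p = 0.971, 0.802 and 0.8).

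Counted over the remaining pairs of tissues, edgeR called 0 of the 10 genes between iLN and spleen (background 1.55% of all genes), mLN and thymus (1.6%), iLN and thymus (1.5%) and iLN and mLN (0.471%). Between mLN and spleen the background of the single call, Dusp1, was 0.654% (1.82% with DESeq2, which called the same gene), and Dusp1 was also the 1 gene of the 10 higher in mLN than in spleen without overlap (3.04% of all genes), with none of the 10 lower in that way (3.15%). At an unadjusted p under 0.05 the numbers of the 10 genes were 4, 4, 3 and 3 in the 4 pairs without a call, against 16.4%, 13.5%, 16.5% and 13.8% of all genes. Between mLN and spleen the number was 4, against 12.2%. DESeq2 called Dusp1 in iLN versus spleen and mLN versus thymus (4.09% and 3.04% of all genes). It called 0 of the 10 in iLN versus thymus and iLN versus mLN (3.47% and 2.03%). Between iLN and mLN all 10 genes overlapped, where 4.46% of all genes were higher and 4.01% lower without overlap.

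The genes most like Dusp1 over the 15 samples, after batch means were removed, were Irf2 (Pearson's r = 0.919), Junb (r = 0.899) and Ssbp4 (r = 0.89), of 10146 genes with a mean of at least 5 CPM. These correlations share libraries and tissue differences and are a description only. Junb, a subunit of AP-1, stood at 17.8 to 63.4 CPM in iLN and 42.2 to 72.7 CPM in mLN, against 2.21 to 24.9 CPM in spleen and thymus. Among the other listed genes, Dusp10 was closest to Dusp1 (r = 0.584, n = 15). Among pairs of the listed genes with a mean of at least 5 CPM, Spry2 and Dusp2 had the highest value (r = 0.685, n = 15). Spry2 and Dusp6 had the lowest (r = -0.574, n = 15). Tissue means were not removed, so that both values also hold the differences between thymus and spleen given above.

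The wider pathway was described by lists. Of 9 tested other dual-specificity phosphatases, 0 were called between LNs and spleen and thymus, with a median log2 fold change of 0.12. The most abundant were Dusp11, which acts on RNA, at 64.8 to 243 TPM, Dusp7, a cytoplasmic ERK phosphatase, at 6.12 to 46.6 TPM, and Dusp19 at 0.35 to 35.1 TPM. The 2 further Sprouty and Spred genes in the files, at most 0.52 TPM together, were not tested. Of 19 genes of Ras activation and the ERK cascade, 0 were called (median 0.15), and of 15 tested genes of the JNK and p38 cascades, 0 were called (median 0.16).

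Single genes of the cascade differed in other comparisons. Rasgrp1, which loads Ras with GTP downstream of the T cell receptor, stood at 155 to 255 CPM in thymus and 305 to 529 CPM in spleen, a log2 difference of -1.03 ± 0.14 (SE, edgeR adjusted p = 0.000203). It was also lower in thymus than in mLN and iLN, by 0.74 ± 0.14 and 1.05 ± 0.15 on the log2 scale (SE, edgeR adjusted p = 0.00389 and 0.000342). Of 6 tested Ras GTPase-activating proteins, 0 were called between LNs and spleen and thymus (median -0.15), while Rasa1 was higher in mLN than in spleen (log2 fold change 0.87 ± 0.16, SE, edgeR adjusted p = 0.00638) and Rasa3 lower in mLN than in thymus (log2 fold change -0.98 ± 0.20, SE, edgeR adjusted p = 0.00867).

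Of 10 tested genes listed as other feedback inhibitors, 2 were called higher and 1 lower in the LNs (median -0.11). The list is broad, and 1 of the 2 higher genes, Zfp36l1, acts on messenger RNA. Lrig1, which restrains growth factor receptors, rose by 1.06 ± 0.22 on the log2 scale (SE, edgeR adjusted p = 0.00691) and Zfp36l1, which destabilises messenger RNA, by 0.77 ± 0.16 (SE, edgeR adjusted p = 0.00734). Dok2, an adaptor that recruits Ras GTPase-activating protein, fell by 0.81 ± 0.17 on that scale (SE, edgeR adjusted p = 0.00827).

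Among transcription factors that ERK is known to induce or activate, 5 of 17 tested were called higher and 0 lower in the LNs, with a median log2 fold change of 0.67 and 15 above 0. Nr4a1, a nuclear receptor induced by T cell receptor signalling, stood at 11.3 to 38.9 CPM in mLN and 12.7 to 26.8 CPM in iLN against 0.451 to 7.93 CPM in spleen and thymus (log2 fold change 3.21 ± 0.45, SE, edgeR adjusted p = 0.000229). Junb rose by 1.73 ± 0.32 on the log2 scale (SE, edgeR adjusted p = 0.00334). Fos, at 4.62 to 23.3 CPM in the LNs, was at most 0.888 CPM in spleen and thymus, and Fosb and Jun were called as well (edgeR adjusted p = 0.000752 and 0.00277). Fos, Fosb, Jun and Junb are also the 4 genes called of the dissociation list, so that these lists are not independent. Egr1 was not called in that comparison and stood at 77.2 to 90.3 CPM in thymus and 34.6 to 48.6 CPM in spleen, but mLN exceeded spleen by 1.17 ± 0.21 on the log2 scale (SE, edgeR adjusted p = 0.00538), as iLN did by 1.16 ± 0.22 (SE, edgeR adjusted p = 0.00484).

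**Figure D4:**
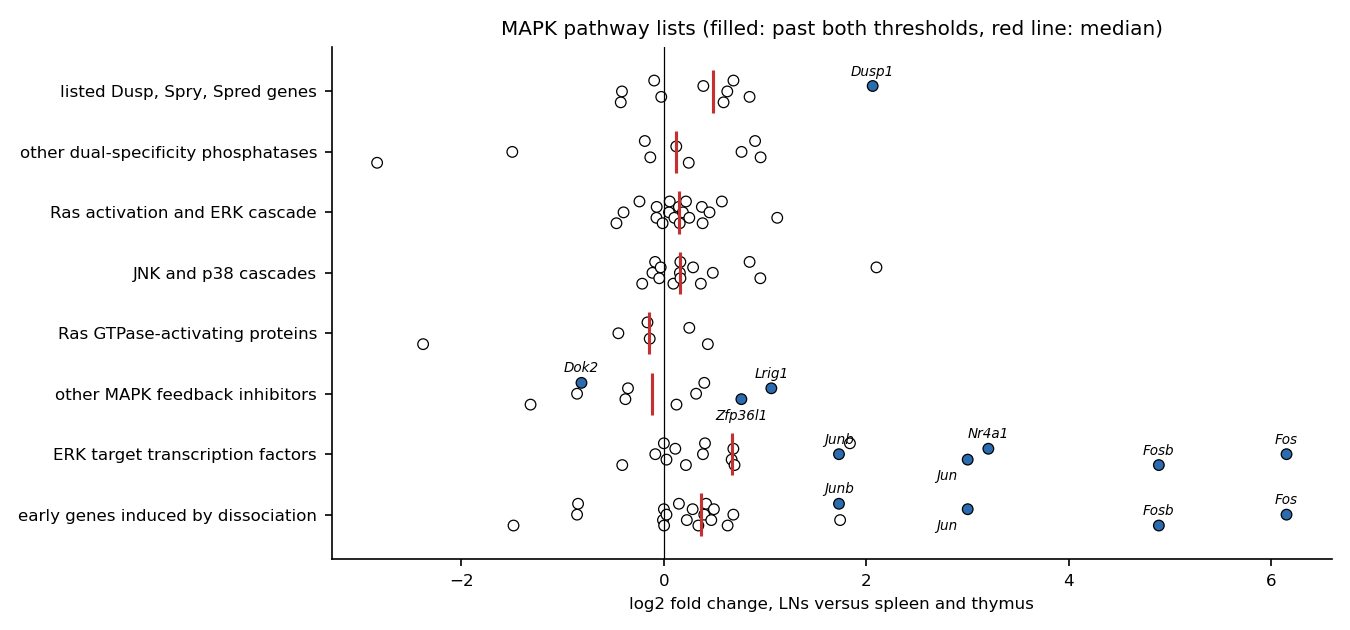
Log2 fold change of LNs over spleen and thymus averaged, for each tested gene of the listed Dusp, Spry and Spred genes and of 7 other lists of the MAPK pathway and early genes, with filled points past both thresholds and a red line at the list's median. Dusp1 at 2.06 is the 1 filled point in the first row, and Fos, Fosb, Jun, Junb and Nr4a1 are filled among ERK target transcription factors.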

How the data were processed

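RNAseq of sorted iNKT cells from 15 samples was analysed. Reads were trimmed with Cutadapt 1.7.1 and quantified by the authors with RSEM 1.2.31 and Bowtie2 2.2.9 on GRCm38.p6, and the annotation release is not given in the sources used here. The deposited expected count is RSEM's estimate of a gene's fragments, in which an ambiguous fragment is split over the genes it matches. The deposited TPM and FPKM values divide these by effective transcript length and scale them per library, and TPM was used for levels per length.

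Expected counts were rounded, filtered with filterByExpr and normalized with TMM in edgeR 4.0.16 (limma 3.58.1, R 4.3.3). The quasi-likelihood fit (robust) had terms for tissue and batch. Calls needed a Benjamini-Hochberg adjusted p under 0.01 over all 13600 genes plus, except for the joint test of the 4 tissues, a fold change over 1.5. The procedure was tested on simulated data. Positions are those of the files' transcripts in GRCm38. The rest was done in Python 3.11.15 (pandas 2.3.3, numpy 2.4.6, matplotlib 3.10.9, scipy 1.17.1).

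The 10 genes and the other lists were chosen with earlier results of these data known. From the other lists, at most 5 called genes of largest change per comparison and the 3 of highest mean TPM were eligible to be named. The genes most like a gene were named where it passed the test over 4 tissues, by Pearson's r of log2 CPM (0.5 added). The alternatives were DESeq2 1.42.0, RLE, other filters, no batch, a replicate block, only the tissues compared, an adjusted p under 0.05, limma on log2(TPM + 1), removal of rRNA genes, thinning, single batches and leaving out each library.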

Additional observations from a re-analysis of the deposited data

Results flagged for a closer look

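Of 30 groups of 4 samples with any spread, 3 held 1 sample far from the others by Dixon's criterion on untransformed CPM. Chance alone reaches it in about 1 group in 20 where values are normally distributed, which was not checked here. Dusp10 in mLN replicate 1 stood at 45.4 CPM against 19.3 to 22.3 CPM in the other mLN samples. Spry2 in the same library stood at 67.6 CPM against 3.27 to 13.5 CPM. Spry1 in spleen replicate 4 stood at 0.407 CPM, from 2 counts, where the other 3 spleen libraries held 0. With the others at 0, any count would have been flagged.

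In mLN against spleen, the mean difference had opposite signs in the batches for 5 genes. For 2 of them, Dusp4 and Dusp5, every mLN sample lay on that side of the spleen mean of its batch, whereas for Dusp10, Spry2 and Spred2 not every sample did. These differences between batches were not tested, and the share of all genes with such signs was not counted. The counts are therefore a description and not a trait of these genes. Dusp5 differed by -3.25 CPM on average in batch 1 and by 16.2 CPM in batch 2. Dusp4 differed by 1.27 CPM in batch 1 and by -1.22 CPM in batch 2, at levels of at most 2.70 CPM in both tissues.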

How the results depend on the processing

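With DESeq2 the count of the 10 genes called was 3 (thymus versus spleen, 2.85% of all genes) and 2 (4 tissues, 7.37%), in place of 0 and 1. It was 1 in iLN versus spleen (4.09%) and 1 in mLN versus thymus (3.04%), in place of 0 in each. Without a filter it was 2 (thymus versus spleen), 2 (mLN versus spleen), 3 (iLN versus spleen), 2 (mLN versus thymus), 1 (iLN versus thymus) and 3 (4 tissues), against 1.62%, 1.13%, 2.24%, 1.79%, 1.98% and 4.68% of all 24238 genes. At an adjusted p under 0.05 it was 1 in thymus and iLN versus spleen and in mLN versus thymus (2.55%, 3.8% and 2.8% of all genes), limma gave 1 in mLN versus thymus (0.787%), and the compared tissues alone gave 2 in thymus versus spleen (2.44%). The single call in mLN versus spleen fell to 0 without the batch term, with limma, thinning, only the tissues compared and in each batch alone. It was also 0 with at least 10 counts in every sample, which left Dusp1 untested, as in LNs versus spleen and thymus and over 4 tissues. Both of these also fell to 0 in each batch alone.

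With the replicate number as a block, with which 14399 genes passed the filter, mLN versus spleen gave 0 calls (Dusp1 adjusted p = 0.0144) and Spred1 in thymus versus spleen turned to -0.010. The deviations of same-numbered samples correlated by 0.122 on average (0.00151 to 0.25), those of other samples of the same batch by 0.107. These values are too close to decide whether same-numbered samples share a source, and the main fit did not pair them.

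Leaving out 1 library gave 0 to 2 calls over 4 tissues, 0 to 1 in mLN versus spleen, mLN versus thymus and thymus versus spleen, and 1 throughout for the LNs. In that order, the shares of all genes called were 2.41% to 3.65%, 0.178% to 0.694%, 0.923% to 1.65%, 0.846% to 1.65% and 1.17% to 1.89%. Differences near 0 changed sign: Spred1 in thymus versus spleen (-0.22 to 0.37), Spred2 in mLN versus spleen (-0.077 to 0.37) and Dusp10 in iLN versus spleen (-0.065 to 0.46).

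Other changes of sign were in thymus versus spleen Dusp1 (limma -0.055, thinned -0.039), Spred1 (limma -0.24, batch 1 -0.023), Spred2 (limma 0.0079), Dusp5 and Dusp10 (thinned 0.12 and 0.26), in mLN versus spleen Spry2, Dusp5 and Dusp10 (batch 1 -0.32, -0.21 and -0.046), Spred1 (limma 0.16) and Spred2 (batch 2 -0.20, thinned -0.34), in iLN versus spleen Spred1 and Dusp10 (batch 2 0.14 and -0.10), and in iLN versus mLN Dusp1 (batch 1 0.10). The cause was not tested. By FPKM, Dusp6 and Dusp10 exchanged places in thymus and 8 of 10 genes kept theirs. Dusp4 and Spry1 are limited by depth.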
